A study of Macaca mulatta with 9 samples.

Results

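The prostates of grown rhesus monkeys (Macaca mulatta) whose mothers had received 300 ng/kg TCDD were compared with those of vehicle offspring. The comparison took the 6 arrays that the labels place in these groups, 3 per group, out of 9 arrays in all, and covered all 20217 non-control probes of the array. Dams were injected subcutaneously on gestation day 20 with 0 (vehicle), 30 or 300 ng/kg of TCDD. Every 30 days they then received 5% of that first dose, through gestation and nursing, until 90 days after delivery. The offspring came to necropsy 7 years after the exposure, and each gave 1 array of total RNA from whole frozen prostate tissue. No strain or allele is named. The 3 offspring of 30 ng/kg dams serve as a reference level, and their arrays also enter the probe filter and the spread behind each p-value. RNA of the entire organ mixes gland, stroma, vessels and nerves, so that fewer cells of a type and less RNA per cell cannot be told apart.

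TCDD is a persistent dioxin that is broken down very slowly in primates. It binds the aryl hydrocarbon receptor, which moves to the nucleus, pairs with ARNT and switches on genes of foreign-compound metabolism such as the CYP1 family. The prostate grows as buds from the urogenital sinus under androgen and signals from its mesenchyme, and the adult gland is lined by luminal cells that secrete large amounts of protein through the endoplasmic reticulum, resting on basal cells within smooth muscle stroma.

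Values are log2 ratios of a probe's signal to its array's 75th percentile, so that 0 marks that percentile and 1 unit is a factor of 2. A floor lay at -6.10. Brightness separated the groups: the 75th percentile lay between 514 and 1193 intensity units on vehicle arrays and between 1258 and 2374 on arrays of 300 ng/kg (exact permutation test, 2-sided p = 0.1, the smallest that 3 against 3 arrays allow). Spots well above background made up 66.7% to 79.2% of a vehicle array and 79.3% to 83.9% of a 300 ng/kg array (exact permutation p = 0.1). Slide 3, which was also 1 scan session, held all 3 arrays of 300 ng/kg and no vehicle array, so slide and dose cannot be told apart. KLK3, the prostate-specific antigen gene, read 2.74 to 5.89 on the 9 arrays at its probe without saturated spots, and MSMB, which encodes beta-microseminoprotein, 4.88 to 6.90, both well above background on every array. The seminal vesicle, urothelium, skeletal muscle and T and NK cell lists had no tested member with a symbol.

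Across 15160 tested probes, no difference between 300 ng/kg and vehicle passed the threshold of an adjusted p under 0.05 (0% of probes, limma with Benjamini-Hochberg adjustment). The smallest adjusted p was 0.158, at LIPG. An unadjusted p under 0.05 was reached by 1119 probes that read higher (7.38%) and 1238 that read lower (8.17%), in all 15.5%. With a fold of at least 2 as well, 471 higher and 724 lower probes were left. On 1736 probes all 3 arrays of 300 ng/kg lay above all 3 of vehicle (11.5%), and on 1698 they lay below (11.2%), together 22.7%. With normexp background correction these splits were 418 higher to 831 lower and 1092 to 2344. Every gene description that follows is therefore a set of measured values, none of which passed the adjusted test with all arrays.

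Symbols reached 1193 tested genes, all of them through the table of probes that the study's authors had selected by analysis of variance on these same 9 arrays. Of these genes 35.7% read higher and 40.7% lower at an unadjusted p under 0.05, together 76.4%. Groups did not overlap in 36.9% (higher) and 44.7% (lower), together 81.6%. These shares, and not the shares of all probes, are the background for the gene lists, and a list's count is not independent evidence. The median difference was -0.01 over all tested probes and -0.34 over genes with a symbol.

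**Figure D1:**
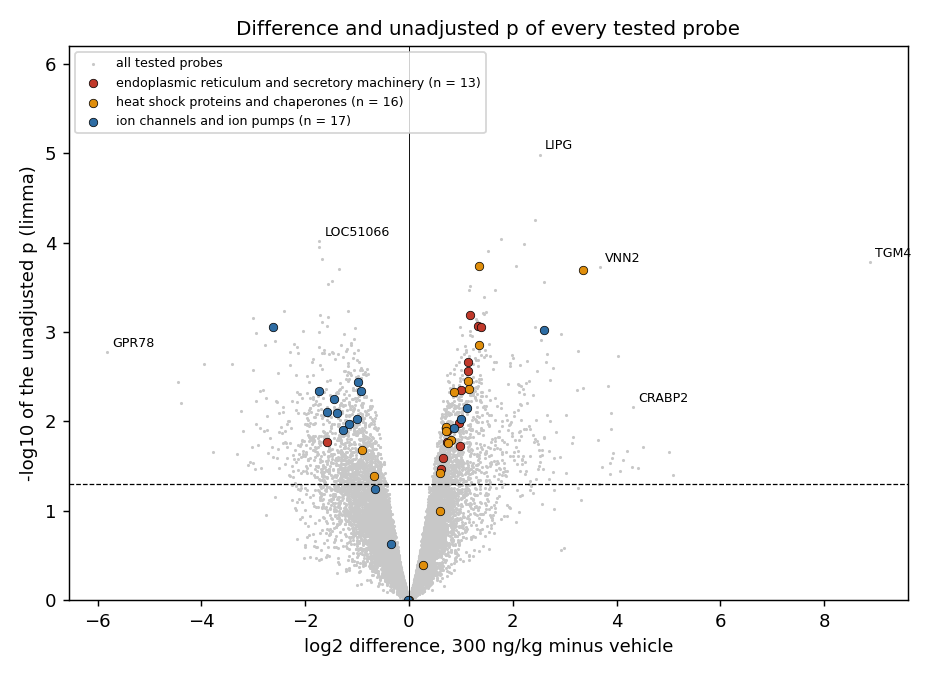
Every tested probe is a point, with the log2 difference (300 ng/kg minus vehicle) on the horizontal axis and the -log10 of limma's unadjusted p on the vertical axis. The dashed line marks the 0.05 level, and coloured points are members of the lists named in the legend. Of 13 endoplasmic reticulum genes 12 lie to the right above the line, and of 17 ion channel genes 10 to the left above it. Among all genes with a symbol 35.7% were higher and 40.7% lower at that level.

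The gene that stood out by size was TGM4, the prostate transglutaminase that cross-links seminal proteins. It read -3.89, -4.55 and -2.54 on the vehicle arrays, -3.17, -1.08 and -3.61 at 30 ng/kg and 6.81, 1.42 and 7.41 at 300 ng/kg. The last 3 values lay above all others, and the second of them was far below the rest of its group. The fitted difference was 8.87 ± 1.44 (SE), a fold of 468, with an adjusted p of 0.216. Against 30 ng/kg the difference was 7.83 (unadjusted p = 0.00041, limma).

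CRABP2, which carries retinoic acid inside cells, showed the same spacing of animals. It read -4.10, -4.68 and -3.94 in vehicle, -4.35, -4.82 and -3.50 at 30 ng/kg and 2.16, -3.47 and 1.52 at 300 ng/kg. Replicates 1 and 3 of 300 ng/kg were high, while replicate 2 lay just above the vehicle range, and the difference came to 4.31 ± 1.24. RBP4, the retinol carrier of plasma, read -3.12, -2.17 and -1.57 in vehicle and 0.71, -1.40 and 0.62 at 300 ng/kg. ALDH1A3, an enzyme that makes retinoic acid, lay on the other side, at 2.60, 2.29 and 3.32 against 2.05, 2.07 and 2.19 (-0.63 ± 0.28). These were the 3 tested members of the retinoid list.

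Other genes with a large difference and signal well above background on all 6 arrays were GREM1, GPX2, PNOC, HLA-B, ODD, CACNA1G, UBD, FLJ14490 and IRX3. GREM1, a secreted BMP antagonist, read -2.79, -3.05 and -2.41 in vehicle, -1.57, -3.37 and -2.52 at 30 ng/kg and 0.66, -1.15 and 2.00 at 300 ng/kg (3.26 ± 0.73). ODD, a zinc finger factor homologous to odd-skipped of flies, read -1.45, -1.38 and -1.81 in vehicle, -2.68, -2.16 and -2.83 at 30 ng/kg and 2.10, -0.62 and 1.81 at 300 ng/kg (2.65 ± 0.62). In both genes replicate 2 was the lowest of its group and still above every vehicle array. PNOC, the prepronociceptin gene, stood at -1.43, -1.03 and -1.21 in vehicle and 1.05, 0.80 and 2.66 at 300 ng/kg (2.72 ± 0.69). FLJ14490, a gene named only by its clone, read -0.95, -2.39 and -1.36 against 2.30, -0.64 and 0.81 (2.39 ± 0.79).

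**Figure D2:**
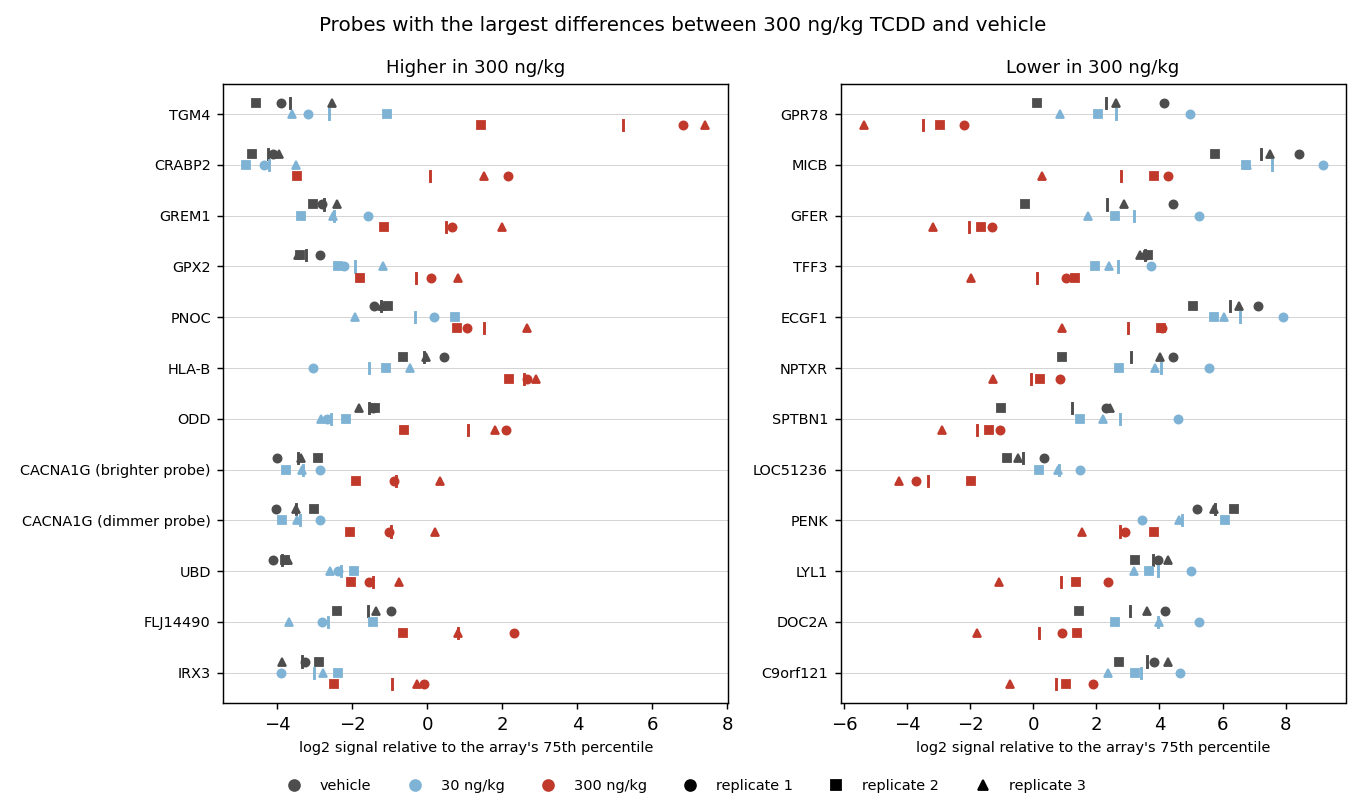
Each point is 1 array, with the log2 signal relative to the array's 75th percentile on the horizontal axis, coloured by group and shaped by replicate, and short bars mark group means. On the left, replicate 2 of 300 ng/kg (square) is the lowest of its group in all 12 probes. On the right, replicate 3 (triangle) is the lowest in all 12.

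The smallest p-values belonged mostly to dimmer probes, some of them with vehicle values at the floor. LIPG, which encodes endothelial lipase, was at the floor of -6.10 on all vehicle arrays and read -3.18, -4.14 and -3.42 at 300 ng/kg. No vehicle array was well above background, so its level at 300 ng/kg was at least 5.45-fold higher, a bound set against the dimmest signal well above background on each vehicle array (adjusted p = 0.158, limma). VNN2, a GPI-anchored pantetheinase, was likewise at the floor on all vehicle arrays and read -1.93, -4.12 and -1.24 at 300 ng/kg, at least 12.1-fold higher (adjusted p = 0.216, limma). OSBPL3, an oxysterol-binding protein, was at least 3.11-fold higher (adjusted p = 0.257, limma), with 300 ng/kg values of -3.99, -5.02 and -4.16. None of these genes was well above background on a vehicle array, so they entered the test only through exposed groups. Values set to the floor have no spread of their own, so these p-values do not fully measure the spread between vehicle animals.

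HAS2, which spins out hyaluronan, read -6.07, -5.82 and -6.10 in vehicle and -4.60, -3.78 and -4.27 at 300 ng/kg (1.78 ± 0.27). DNASE1L3, a secreted nuclease, read -4.58, -5.40 and -4.66 against -1.63, -2.98 and -2.23 (2.60 ± 0.45). The remaining genes of this kind were NFE2L3 (1.17), GAL3ST4 (1.49), TPBG (1.45) and LOC221442 (1.16), all without overlap between the groups. Differences at signals this dim changed with normexp, which took the median signal and added an offset of 50 units. The parts of the correction and of the offset were not told apart. With normexp the difference of LIPG was 0.55, of HAS2 0.01, of VNN2 1.49, of DNASE1L3 1.12 and of OSBPL3 -0.0022, when the median of all probes shifted by -0.22.

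Genes of the secretory route stood on 1 side. Of 13 tested members of the endoplasmic reticulum and secretory machinery list, 12 read higher and 1 lower at an unadjusted p under 0.05, against 35.7% and 40.7% of all genes with a symbol. None of the 13 overlapped between the groups, and neither did 81.6% of all genes with a symbol. The median difference was 0.98, beside -0.34 over genes with a symbol. XBP1, the transcription factor that expands the secretory apparatus, read 1.14, 1.34 and 1.31 in vehicle, 1.27, 2.03 and 1.12 at 30 ng/kg and 2.76, 2.31 and 2.89 at 300 ng/kg (1.39 ± 0.28). CREB3L2, a membrane-bound factor released by proteolysis in the Golgi, read -0.65, -0.06 and -0.39, -0.43, 0.19 and -0.44 and 1.02, 0.67 and 1.22 in the same order (1.33 ± 0.27). In both, all 3 animals of 300 ng/kg lay above the 6 others.

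ERO1LB, an oxidase that drives disulphide formation, read -5.41, -5.53 and -5.20 in vehicle, -4.72, -4.15 and -4.65 at 30 ng/kg and -4.01, -4.30 and -4.30 at 300 ng/kg (1.18 ± 0.23), and 1 array of 30 ng/kg lay within the range of 300 ng/kg. The translocon subunit SEC61B (1.14 ± 0.27), the disulphide isomerases GRP58 (1.14 ± 0.28) and PDIA4 (1.00 ± 0.26) and the stress sensor ATF6 (0.96 ± 0.30) followed. SRPRB, a subunit of the signal recognition particle receptor, the lectin chaperone CANX and the vesicle coat and fusion genes SEC24D, SEC22L1 and COPB2 differed by 0.62 to 0.98. The exception was PDIA2, an isomerase best known from the pancreas, at 0.10, -1.01 and -0.97 in vehicle and -1.26, -1.91 and -3.44 at 300 ng/kg (-1.58 ± 0.54). Averaged over the 13 members, the arrays of 300 ng/kg stood 0.94, 0.54 and 0.90 above the vehicle mean, and those of 30 ng/kg at 0.03, 0.37 and -0.15. With array brightness as a covariate 7 members stayed higher at that threshold and the median was 0.65. With slide as a fixed block, estimable only through the 30 ng/kg arrays, 7 stayed and the median was 1.22. Without replicate 3 of 300 ng/kg 7 of the 12 stayed, at a median of 0.85. ERO1LB was dim, and its difference was -0.10 with normexp.

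**Figure D3:**
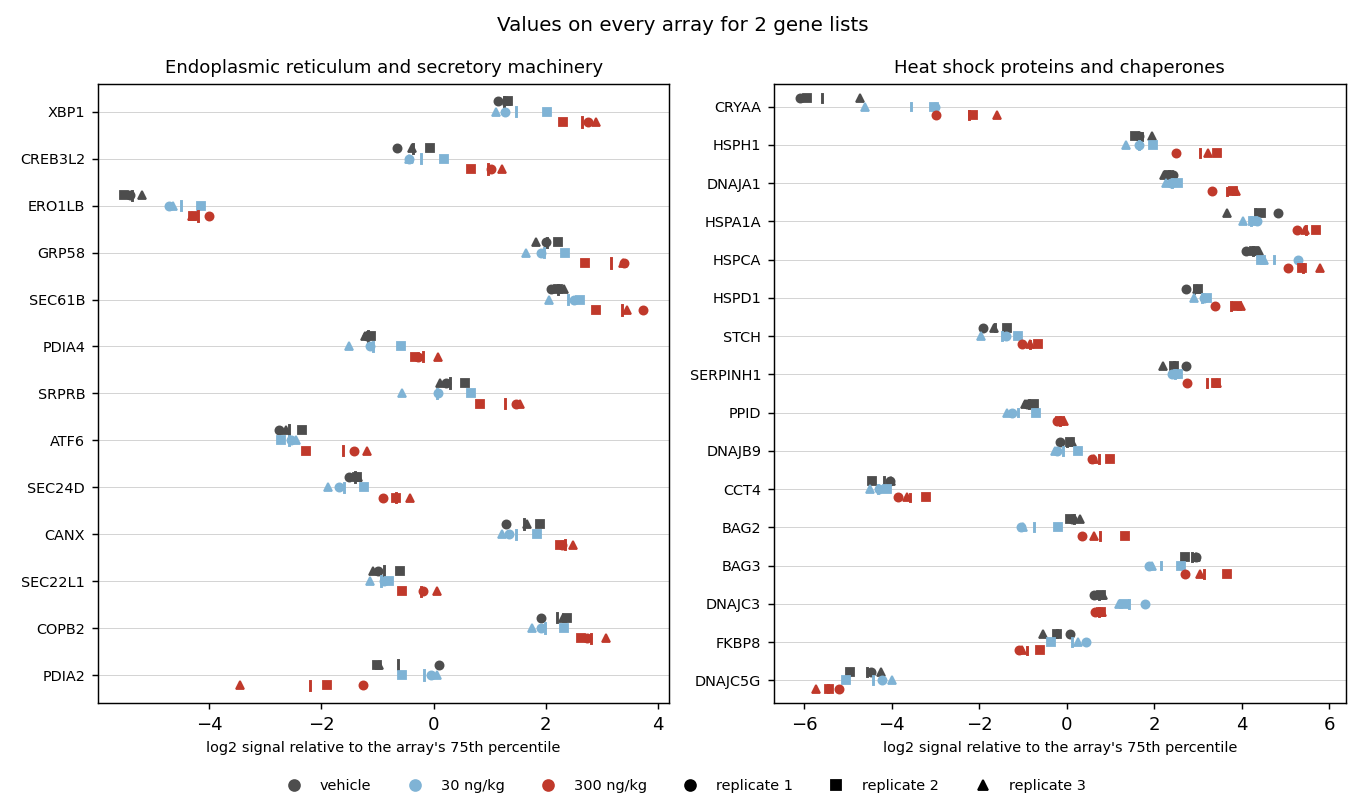
Each point is 1 array, with the log2 signal relative to the array's 75th percentile on the horizontal axis, coloured by group and shaped by replicate, and short bars mark group means. The 3 red points lie right of the grey ones in 12 of 13 genes on the left panel and in 12 of 16 on the right. Replicate 2 (square) is the lowest red point of XBP1, SEC61B and ATF6 and the highest of HSPH1, HSPA1A and CCT4.

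Members of the heat shock protein and chaperone list also stood mostly higher. Of 16 tested members, 11 read higher and 2 lower at an unadjusted p under 0.05. Among all genes with a symbol the shares were 35.7% and 40.7%. The list's median difference was 0.73. DNAJA1, a partner of HSP70, read 2.43, 2.34 and 2.21 in vehicle, 2.39, 2.55 and 2.27 at 30 ng/kg and 3.32, 3.80 and 3.87 at 300 ng/kg (1.34 ± 0.22). HSPH1, a nucleotide exchange factor for HSP70, read 1.64, 1.56 and 1.95, 1.65, 1.98 and 1.36 and 2.50, 3.43 and 3.23 (1.34 ± 0.29). In both genes the 6 animals of the other groups lay below all 300 ng/kg values. CRYAA, a small heat shock protein first known as a lens crystallin, read -6.10, -5.94 and -4.73 in vehicle, -3.01, -3.04 and -4.61 at 30 ng/kg and -2.98, -2.14 and -1.60 at 300 ng/kg (3.35 ± 0.56), and its 30 ng/kg values already lay above the vehicle range. Its difference was 1.34 with normexp.

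HSPCA, an HSP90 gene (1.14 ± 0.29), HSPA1A, the inducible HSP70 (1.16 ± 0.31), the mitochondrial HSPD1 (0.86 ± 0.23) and the collagen chaperone SERPINH1 (0.74 ± 0.26) were among the higher members. FKBP8 (-0.68 ± 0.28) and DNAJC5G (-0.90 ± 0.32) read lower. BAG3 and DNAJC3 overlapped between the groups, at 0.27 ± 0.31 and 0.00 ± 0.22. Here the animals were spaced otherwise than in the secretory list: averaged over the 16 members, replicates 1, 2 and 3 of 300 ng/kg stood 0.47, 0.97 and 0.83 above the vehicle mean. Several of these probes may share sequence with close paralogs, which the array signal cannot separate. With brightness as a covariate 6 of the 11 stayed higher, with a median of 0.52, and with slide as a fixed block 6 did. The 2 lower members were both lost with normexp, with brightness as a covariate, and without replicate 1 of vehicle or replicate 3 of 300 ng/kg.

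Enzymes of sugar metabolism and glycosylation divided. Of 21 tested members 13 read higher and 7 lower, beside 35.7% and 40.7% of all genes with a symbol. The list's median difference was 0.78. PGM3, which makes the precursor of UDP-GlcNAc, read -1.76, -1.31 and -1.97 in vehicle, -0.96, -1.29 and -1.16 at 30 ng/kg and -0.01, -1.02 and -0.01 at 300 ng/kg (1.33 ± 0.32). Golgi enzymes that trim or extend glycans were higher, among them MGAT2 (0.94 ± 0.26), B4GALT1 (0.78 ± 0.28), B3GNT5 (0.88 ± 0.26) and FUT10 (1.28 ± 0.30), as was UGDH (0.86 ± 0.24), the source of UDP-glucuronate for matrix chains. Lower members included the muscle glycogen phosphorylase PYGM (-1.29 ± 0.38) and the glycogen synthase GYS1 (-0.83 ± 0.21), while the liver form of the phosphorylase, PYGL, read -3.38, -2.95 and -2.78 against -1.88, -1.78 and -1.48 (1.33 ± 0.31). In the fit with slide as a fixed block 2 members were higher and 3 lower at that threshold, and PYGL came to 0.38. With normexp 6 members were higher and 3 lower, the median turned to -0.08, and FUT10, a dim probe, came to 0.13 and PYGL to 0.75.

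**Figure D4:**
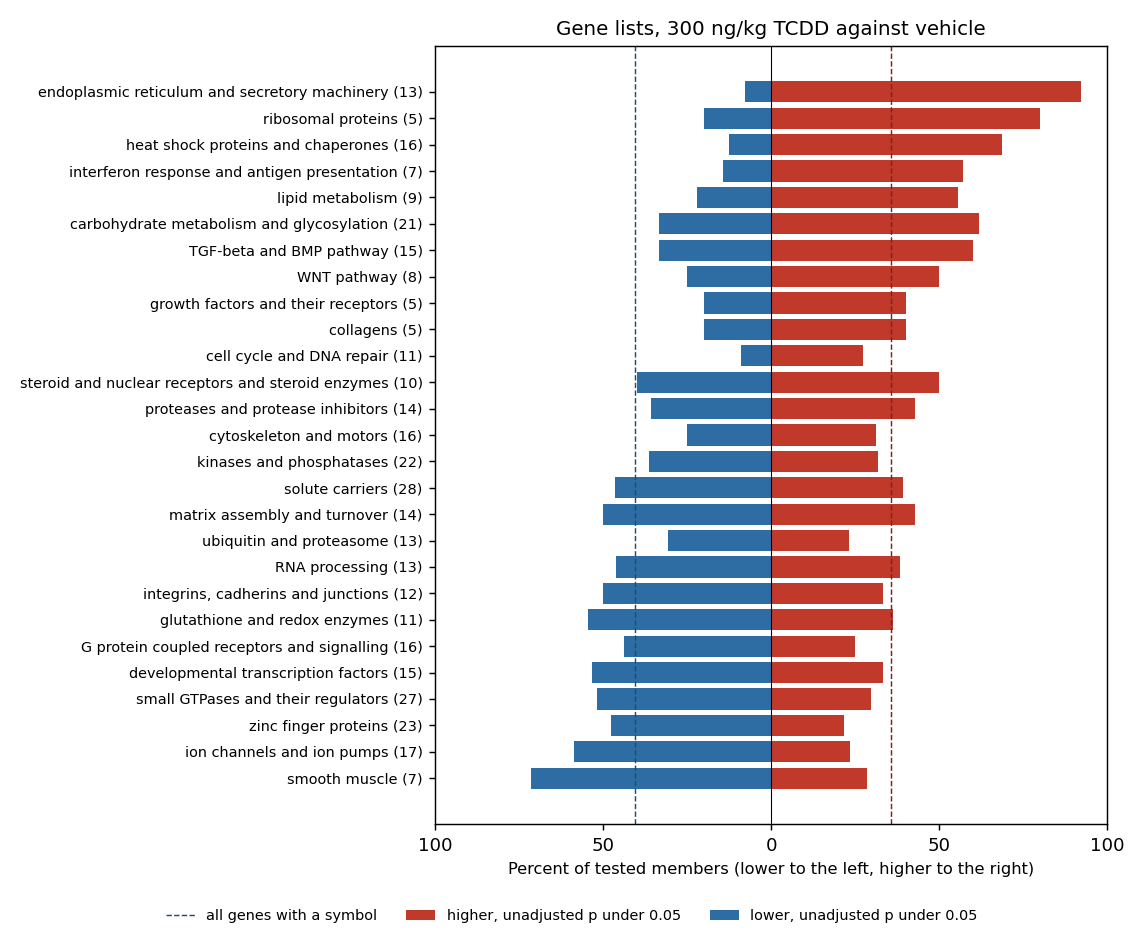
For each gene list with at least 5 tested members (number in brackets), the bar to the right gives the percent of members higher in 300 ng/kg and the bar to the left the percent lower, both at an unadjusted p under 0.05. Dashed lines mark 35.7% and 40.7%, the shares among all genes with a symbol, and the secretory list is at the top and smooth muscle at the bottom.

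TGF-beta and BMP genes included targets, antagonists and processing enzymes. Of 15 tested members 9 read higher and 5 lower, beside 35.7% and 40.7% of all genes with a symbol. The list's median was 0.76. The ID genes, which BMP receptors switch on and which block basic helix-loop-helix factors, were all on the higher side. ID3 read 2.00, 1.56 and 2.50 in vehicle, 2.00, 1.95 and 2.43 at 30 ng/kg and 3.90, 2.87 and 3.98 at 300 ng/kg (1.57 ± 0.36). ID2 read -0.69, -0.89 and 0.01, -0.79, -0.39 and -0.04 and 1.34, 0.33 and 1.64 (1.62 ± 0.39), and ID1 differed by 2.11 ± 0.54. In ID2 and ID3 the vehicle and 30 ng/kg animals shared a range, and replicate 2 was again nearest to it.

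Secreted or membrane antagonists of the pathway were higher together with GREM1: CHRD (0.72 ± 0.21) binds BMPs outside the cell, BAMBI (1.33 ± 0.35) is a receptor without a kinase, and SMAD7 (0.76 ± 0.26) blocks the receptor from inside. BMP1, a protease that cleaves chordin and procollagens, was lower (-2.11 ± 0.57), as were LTBP4 (-1.33 ± 0.44), a binding protein of latent TGF-beta, the ligand GDF5 (-1.30 ± 0.45) and the receptors ACVRL1 (-0.76 ± 0.26) and ACVR2B (-1.10 ± 0.47). GDF10 overlapped (0.57 ± 0.36). With slide as a fixed block ID3 came to 0.64 and ID2 to 0.54, and no member stayed higher at that threshold. The lower count was 1 without replicate 1 of vehicle and 3 without replicate 2 or 3 of vehicle or replicate 3 of 300 ng/kg, and 2 with brightness as a covariate.

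Among 8 tested WNT pathway genes 4 read higher and 2 lower, beside 35.7% and 40.7% of all genes with a symbol. The ligand WNT5A read -2.74, -2.89 and -2.32 in vehicle and -0.83, -1.69 and -1.70 at 300 ng/kg (1.24 ± 0.32), and its relative WNT5B read -0.37, -0.55 and -1.08 against -1.95, -2.02 and -1.78 (-1.25 ± 0.26). The intracellular antagonist NKD2 was lower (-1.10 ± 0.33) and the secreted antagonist SFRP1 read higher with 1 overlapping array (1.16 ± 0.41). The fixed slide block gave 0.45 for WNT5A and -0.33 for WNT5B and left no member past that threshold, and 2 members were higher without replicate 3 of 300 ng/kg and 1 with brightness as a covariate. MET, the receptor of hepatocyte growth factor, read -0.45, -0.26 and 0.00 in vehicle and 1.28, 0.88 and 1.46 at 300 ng/kg (1.45 ± 0.28), or 0.65 with the slide block, and its ligand HGF differed by 0.63 ± 0.27. FGFR4 stood lower (-0.83 ± 0.29).

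Matrix genes went both ways, with 6 of 14 tested members of the assembly and turnover list higher and 7 lower. Among all genes with a symbol 35.7% were higher and 40.7% lower. COL1A1, a chain of fibrillar type I collagen, read 0.56, -0.68 and 0.16 in vehicle and 1.63, 0.91 and 2.13 at 300 ng/kg (1.54 ± 0.41). COL1A2, its partner chain, differed by 0.75 ± 0.29, while COL6A2 of the beaded microfibrils read 6.60, 5.75 and 7.19 against 5.09, 5.43 and 4.19 (-1.61 ± 0.48). The collagen hydroxylase P4HA2 (1.68 ± 0.40), the procollagen protease ADAMTS2 (1.39 ± 0.37) and the enhancer of procollagen processing PCOLCE (1.17 ± 0.30) were higher. CPXM2 (-2.05 ± 0.43), ADAMTS13 (-1.67 ± 0.38) and the laminin chains LAMB2 (-0.78 ± 0.34) and LAMA5 (-0.65 ± 0.22) of basement membranes were lower. With brightness as a covariate COL6A2 came to -0.98, LAMB2 to -0.30 and COL1A2 to 0.43, and without replicate 3 of 300 ng/kg COL1A2 came to 0.46. The list then had 4 higher and 4 lower members, with brightness 4 and 3, and with slide as a fixed block 2 and 2.

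Developmental transcription factors showed 5 higher and 8 lower of 15 tested, beside 35.7% and 40.7% of all genes with a symbol. The Iroquois homeobox genes lay on the higher side. IRX4 read -5.91, -4.68 and -5.00 in vehicle, -6.10, -6.10 and -6.10 at 30 ng/kg and -3.27, -3.14 and -2.54 at 300 ng/kg (2.21 ± 0.34), and IRX3 read -3.26, -2.89 and -3.86, -3.89, -2.37 and -2.77 and -0.09, -2.49 and -0.26 (2.39 ± 0.65). All 3 arrays of 30 ng/kg were at the floor for IRX4, below the vehicle values. IRX1 overlapped between the groups at 1.37 ± 0.49. The Notch targets HES1 (1.42 ± 0.47) and HEY1 (0.85 ± 0.23) were the other higher members.

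EYA1, a coactivator of sine oculis homeobox proteins, read 1.68, 1.77 and 2.09 in vehicle, 1.66, 0.96 and 1.85 at 30 ng/kg and -0.15, 0.75 and -0.21 at 300 ng/kg (-1.71 ± 0.34). SIX2, a homeobox gene of that family, was lower as well (-1.53 ± 0.39), and so was the forkhead gene FOXC1, at -1.30, -1.32 and -0.81 against -2.61, -2.20 and -3.79 (-1.72 ± 0.41). SOX14 (-1.66 ± 0.50), FOXP4 (-1.05 ± 0.26), MEIS3 (-0.96 ± 0.27), OSR2 (-0.66 ± 0.25) and NKX2-8 (-0.99 ± 0.42) completed the lower side. ODD, described above on the higher side, was counted neither on this list nor on that of zinc finger genes. With normexp IRX4 came to 0.66, and the EYA1 difference to -1.66. The list had 3 higher members with normexp, with brightness as a covariate or without replicate 1 of 300 ng/kg, and 1 higher and 4 lower with slide as a fixed block.

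Markers of stratified epithelium were all on the higher side. ANXA1, a calcium-dependent membrane binder, read -1.31, -1.17 and -1.35 in vehicle, -0.82, -0.07 and -0.77 at 30 ng/kg and 0.99, 0.10 and 1.28 at 300 ng/kg (2.07 ± 0.34). KRT13, a keratin of such epithelia and of the cells called hillock or club-like in the prostate, was at the floor on 2 vehicle arrays and all 30 ng/kg arrays and read -4.13, -3.39 and -1.20 at 300 ng/kg (2.78 ± 0.67). ANXA8 read -5.51, -6.10 and -4.10 in vehicle and -1.23, -4.05 and -0.37 at 300 ng/kg (3.35 ± 0.88). These were all 3 tested members. Of the basal cell list S100A2 (1.55 ± 0.57) and ITGB4 (0.21 ± 0.24) both overlapped between the groups. VDR, the vitamin D receptor, read -4.42, -3.82 and -3.93 in vehicle and -0.91, -3.39 and -1.40 at 300 ng/kg (2.15 ± 0.61). With normexp KRT13 came to 1.11, ANXA8 to 1.72 and VDR to 1.17.

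Antigen presentation and interferon genes had 4 of 7 tested members higher and 1 lower, beside 35.7% and 40.7% of all genes with a symbol. The higher count was 2 without replicate 3 of 300 ng/kg or with brightness as a covariate, and 1 with slide as a fixed block, and the list's median of 0.69 turned to -0.16 with normexp. UBD, a ubiquitin-like modifier, read -4.11, -3.78 and -3.70 in vehicle, -2.38, -1.95 and -2.58 at 30 ng/kg and -1.55, -2.03 and -0.75 at 300 ng/kg (2.42 ± 0.34), and the 30 ng/kg values lay above the vehicle range, 1 of them level with the upper group. HLA-B, a class I molecule, read 0.45, -0.66 and -0.02, -3.05, -1.10 and -0.46 and 2.67, 2.18 and 2.91 (2.66 ± 0.61), and 2 of its 30 ng/kg values lay below the vehicle range, though such probes can cross-hybridise among class I genes. The fixed slide block gave 0.98 for HLA-B. RELB, a subunit of NF-kappaB that also partners the aryl hydrocarbon receptor, was lower in both exposed groups. It read 2.69, 3.21 and 2.65 in vehicle, 2.12, 1.79 and 1.59 at 30 ng/kg and 1.55, 2.17 and 1.91 at 300 ng/kg (-0.97 ± 0.26). With slide as a fixed block its difference came to -0.42. Single markers of immune cells stood apart: FCER1A of mast cells (2.15 ± 0.51), CTSS of myeloid cells (0.69 ± 0.25) and IGLL1 of B cells (-0.90 ± 0.24), whose list held XBP1 (1.39) as its other tested member. FCER1A came to 0.38 with normexp and 0.64 with the slide block, CTSS to -0.16 with normexp, and UBD to 1.43. Their part in the differences of other genes was not tested.

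The list of aryl hydrocarbon receptor pathway genes held only RELB, ALDH1A3 and SLC7A5 among the tested genes with a symbol. SLC7A5, an amino acid transporter, read -0.83, -1.45 and -1.28 in vehicle and 0.45, -0.61 and -0.60 at 300 ng/kg (0.94 ± 0.34), and came to 0.58 without replicate 1. CYP1A1, CYP1B1 and AHRR carry no symbol here and were not analysed here. Redox enzymes were split, 4 of 11 higher and 6 lower, beside 35.7% and 40.7% of all genes with a symbol. With slide as a fixed block 2 of these enzymes stayed higher and 1 lower at an unadjusted p under 0.05. GPX2, a glutathione peroxidase of epithelia, read -2.84, -3.38 and -3.43 in vehicle, -2.22, -2.38 and -1.17 at 30 ng/kg and 0.10, -1.79 and 0.81 at 300 ng/kg (2.93 ± 0.62). PRDX6, a peroxiredoxin, read 2.06, 1.86 and 1.75 against 3.00, 2.51 and 2.78 (0.87 ± 0.21), while PRDX2 was lower (-1.26 ± 0.41). The gamma-glutamyl transferase genes GGT1 (-1.17 ± 0.30), GGTL4 (-1.16 ± 0.29) and GGTLA1 (-1.27 ± 0.36), which resemble each other closely in sequence, were lower together.

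Smooth muscle genes were mostly lower, 5 of 7 tested against 2 higher, with a median of -0.73. Among all genes with a symbol 40.7% were lower and 35.7% higher. SGCA, the alpha subunit of the sarcoglycan complex, read 0.94, 1.33 and 0.58 in vehicle, 0.89, 0.30 and 0.39 at 30 ng/kg and -0.59, -0.80 and -0.96 at 300 ng/kg (-1.74 ± 0.27, adjusted p = 0.216, limma). All 300 ng/kg values lay below those of the 6 other animals. PDLIM7, a linker to actin filaments, read 1.82, 1.55 and 1.62, 1.84, 1.26 and 1.53 and 0.32, 0.87 and -0.12 (-1.31 ± 0.29). Leiomodin LMOD1 (-0.80 ± 0.28), the myosin light chain MYL6 (-0.60 ± 0.24) and the tropomyosin TPM2 (-0.73 ± 0.32) were also lower. PDLIM1 (1.31 ± 0.36) and TPM3 (0.85 ± 0.27) were higher. MYL6 on the lower side and PDLIM1 and TPM3 on the higher side are found in many cell types. With slide as a fixed block no member stayed lower at that threshold, and SGCA came to -1.17. The lower count was 2, level with the higher one, with median scaling or without replicate 1 of vehicle or replicate 1 or 3 of 300 ng/kg. It was 3 with normexp, quantile normalization or brightness as a covariate and without replicate 2 of vehicle.

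Of 4 tested members of the neuropeptide and hormone list 3 read lower, beside 40.7% of all genes with a symbol. PNOC, described above on the higher side, was not on that list. PENK, which encodes the enkephalin precursor, read 5.18, 6.37 and 5.73 in vehicle, 3.46, 6.09 and 4.62 at 30 ng/kg and 2.91, 3.81 and 1.53 at 300 ng/kg (-3.01 ± 0.73). NTS, the neurotensin gene, read 3.24, 4.46 and 3.73, 1.56, 3.32 and 2.11 and 1.76, 1.67 and 0.23 (-2.59 ± 0.56). ADCYAP1, the precursor of PACAP, was dim and differed by -0.91 ± 0.26, while INSL6 overlapped (-0.54 ± 0.52). With slide as a fixed block none of the 3 passed that threshold. With brightness as a covariate PENK came to -3.81 and NTS to -3.16. Of the nerve markers LSAMP read -1.24, -1.29 and -1.20 in vehicle, -2.09, -2.07 and -2.06 at 30 ng/kg and -2.26, -2.05 and -1.83 at 300 ng/kg (-0.80 ± 0.19), and NCAM1 differed by -0.08 ± 0.28.

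Ion channels and pumps had 10 of 17 tested members lower and 4 higher, with a median of -0.99. Among all genes with a symbol 40.7% were lower and 35.7% higher. ATP2B3, a calcium pump of the plasma membrane, read -1.86, 0.17 and -0.98 in vehicle, -1.90, -2.58 and -2.77 at 30 ng/kg and -3.27, -2.96 and -4.30 at 300 ng/kg (-2.62 ± 0.54). GABRE, a subunit of the GABA-A receptor, read 3.03, 2.74 and 3.36, 3.66, 3.11 and 3.50 and 1.84, 2.29 and 2.04 (-0.99 ± 0.25). The calcium channel genes CACNA1B (-1.73 ± 0.46) and CACNA1H (-1.16 ± 0.36) and the cation channels TRPC6 (-1.44 ± 0.40), TRPM4 (-1.0 ± 0.31) and TRPV6 (-1.27 ± 0.41) were lower. CACNA1G, a T-type calcium channel, stood on the other side: its brightest probe read -4.0, -2.92 and -3.37 in vehicle, -2.85, -3.76 and -3.34 at 30 ng/kg and -0.90, -1.91 and 0.33 at 300 ng/kg (2.61 ± 0.54), and a second probe differed by 2.55 ± 0.55. With brightness as a covariate 5 of the 10 stayed lower, at a median of -0.66, and with slide as a fixed block 4 did.

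A set of probes well above background on all 9 arrays, with large lower values, shared a profile over the arrays. MICB, a stress ligand of NK cell receptors, read 8.42, 5.76 and 7.50 in vehicle, 9.18, 6.76 and 6.77 at 30 ng/kg and 4.26, 3.83 and 0.26 at 300 ng/kg (-4.44 ± 1.14). GPR78, an orphan receptor, read 4.16, 0.10 and 2.62, 4.97, 2.03 and 0.85 and -2.19, -2.98 and -5.39 (-5.81 ± 1.32), and GFER, a sulfhydryl oxidase of mitochondria, read 4.42, -0.27 and 2.87, 5.27, 2.60 and 1.73 and -1.31, -1.67 and -3.19 (-4.40 ± 1.24). In all 3 the highest value belonged to replicate 1 of 30 ng/kg, the dimmest array, and the lowest to replicate 3 of 300 ng/kg, the brightest. ECGF1, the thymidine phosphorylase gene (-3.24 ± 0.95), the pentraxin receptor NPTXR (-3.19 ± 1.03), the spectrin SPTBN1 (-3.02 ± 1.07) and DOC2A (-2.92 ± 1.01), a calcium sensor of vesicle release, had the same extremes. With brightness as a covariate the differences came to -2.89 for MICB, -2.90 for GFER, -1.90 for ECGF1, -1.48 for NPTXR, -1.40 for SPTBN1 and -1.23 for DOC2A, and with slide as a fixed block GPR78 came to -3.49. The part of brightness in these values was not tested further.

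TFF3, a trefoil peptide of mucous secretions, had the same extremes with a tight vehicle group. It read 3.58, 3.63 and 3.37 in vehicle, 3.73, 1.94 and 2.41 at 30 ng/kg and 1.04, 1.31 and -1.99 at 300 ng/kg (-3.41 ± 0.81). LOC51236, annotated as brain protein 16, read 0.34, -0.84 and -0.48, 1.47, 0.18 and 0.78 and -3.74, -2.0 and -4.27 (-3.01 ± 0.60). LYL1, a helix-loop-helix factor of blood cells, and C9orf121 differed by -2.94 ± 0.82 and -2.88 ± 0.77. These 3 genes too were highest on replicate 1 of 30 ng/kg and lowest on replicate 3 of 300 ng/kg, and without replicate 3 of 300 ng/kg LYL1 came to -1.96. HBZ, a globin gene and the only tested marker of red cells, read 3.61, 2.79 and 3.91 in vehicle and 2.30, 2.41 and 0.98 at 300 ng/kg (-1.54 ± 0.45).

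Tight differences on the lower side included several genes of little known function. LOC51066 read -3.89, -3.54 and -3.33 in vehicle, -3.90, -3.80 and -3.14 at 30 ng/kg and -5.34, -5.28 and -5.34 at 300 ng/kg (-1.73 ± 0.26, adjusted p = 0.216, limma). UNQ830 differed by -1.68 ± 0.27, PAMCI by -1.67 ± 0.33, C6orf108 by -1.56 ± 0.31, FLJ32942 by -1.04 ± 0.21 and FLJ14871, described as a coronin, by -1.57 ± 0.32. SLC12A3, the thiazide-sensitive sodium chloride cotransporter, read -2.49, -2.33 and -1.88 against -3.54, -4.06 and -3.56 (-1.49 ± 0.26). LIX1 (-2.40 ± 0.46) came to -1.24 with slide as a fixed block. LOC285513 read -3.04, -3.48 and -2.65 in vehicle, -4.84, -4.57 and -4.70 at 30 ng/kg and -4.75, -4.84 and -4.25 at 300 ng/kg, low in both exposed groups (-1.55 ± 0.27).

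Regulators of small GTPases had 14 of 27 tested members lower and 8 higher, with a median of -0.62. FARP1, an exchange factor of small GTPases, read -2.04, -2.13 and -1.95 in vehicle, -1.27, -2.26 and -1.61 at 30 ng/kg and -3.56, -3.26 and -4.51 at 300 ng/kg (-1.74 ± 0.36). ARHGAP1, a GTPase-activating protein, differed by -1.05 ± 0.24, and 2 probes of RAB37 by -1.18 ± 0.23 and -0.93 ± 0.23. Zinc finger genes had 11 of 23 lower and 5 higher, led by ZNF346 at -1.36, -1.03 and -0.78 in vehicle and -4.50, -5.27 and -1.83 at 300 ng/kg (-2.81 ± 0.75). Of the 11, 1 stayed lower with slide as a fixed block and 2 with brightness as a covariate. The number was 5 without replicate 1 of vehicle or replicate 3 of 300 ng/kg. It was 7 without replicate 3 of vehicle or replicate 2 of 300 ng/kg or with normexp. For the GTPase regulators the lower count was 8 with brightness and 3 with slide as a fixed block, and the higher count 5 and 4 without replicates 1 and 3 of 300 ng/kg. Both shares of lower members lay near the 40.7% of all genes with a symbol.

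KLK3 and MSMB, other genes of luminal secretion, had differences below 0. The KLK3 probe with no saturated spot read 3.92, 5.79 and 3.30 in vehicle, 5.43, 4.61 and 5.89 at 30 ng/kg and 2.85, 3.02 and 2.74 at 300 ng/kg (-1.47 ± 0.59), and came to -0.74 without vehicle replicate 2. A brighter KLK3 probe was saturated on 6 arrays, where its signal is only a bound, and no difference is given for it. MSMB overlapped between the groups, at 5.22, 6.64 and 6.02 against 4.88, 5.39 and 5.43 (-0.73 ± 0.36), and came to -0.33 with slide as a fixed block and -1.14 with brightness as a covariate. Against 30 ng/kg the differences were -2.44 for that KLK3 probe and -1.51 for MSMB (unadjusted p = 0.0025 and 0.0023, limma).

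The 3 arrays of 300 ng/kg were not alike. Among the 1736 probes that read higher without overlap, replicate 2 was the nearest to vehicle on 50.1% and replicate 3 on 15.6%. Among the 1698 lower ones the shares were 50.9% and 9.0%, and replicate 3 was the farthest from vehicle on 71.0%. Over all tested probes, replicate 2 was the lowest of the 3 on 30.3% and the highest on 39.5%. In the first principal component, which held 43.9% of the variance, the 300 ng/kg arrays scored 46.5, 24.7 and 93.1 and the vehicle arrays -22.3, 16.8 and -54.8. The 30 ng/kg arrays scored -55.7, 9.7 and -57.9. The lowest scores belonged to the dimmest arrays, replicates 1 and 3 of 30 ng/kg, and the highest to the brightest, replicate 3 of 300 ng/kg. The part of brightness in these scores was not tested.

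Leaving out replicate 2 of 300 ng/kg brought 271 probes past an adjusted p under 0.05 (limma, 1.79% of those tested), 235 higher (1.55%) and 36 lower (0.237%). Each array was left out in turn, and none of the other 8 gave a call. Of 100 probes with a symbol among the 271, 74 were higher. VNN2 (adjusted p = 0.0022, limma), CRABP2 (6.08), TGM4 (10.77), ODD (3.50) and LIPG led them by p. Replicate 2 was the 300 ng/kg array most often nearest to vehicle, and leaving it out widens the difference of such probes. CRABP2 differed by 4.31 with all arrays. The calls of this fit are therefore no independent support for a difference. All vehicle values of VNN2 and LIPG were at the floor. Also past the threshold were ID1, ID2, ID3, BAMBI and GREM1, the secretory genes SEC61B and ATF6, and IRX1, IRX3 and IRX4, while EYA1, SIX2, SGCA, PDLIM7, TRPC6 and FARP1 were lower. Weighting the arrays by their fit gave 198 calls (1.31%), 127 higher (0.838%) and 71 lower (0.468%), of which 72 were shared with the 271, or 36.4% of the one set and 26.6% of the other.

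**Figure D5:**
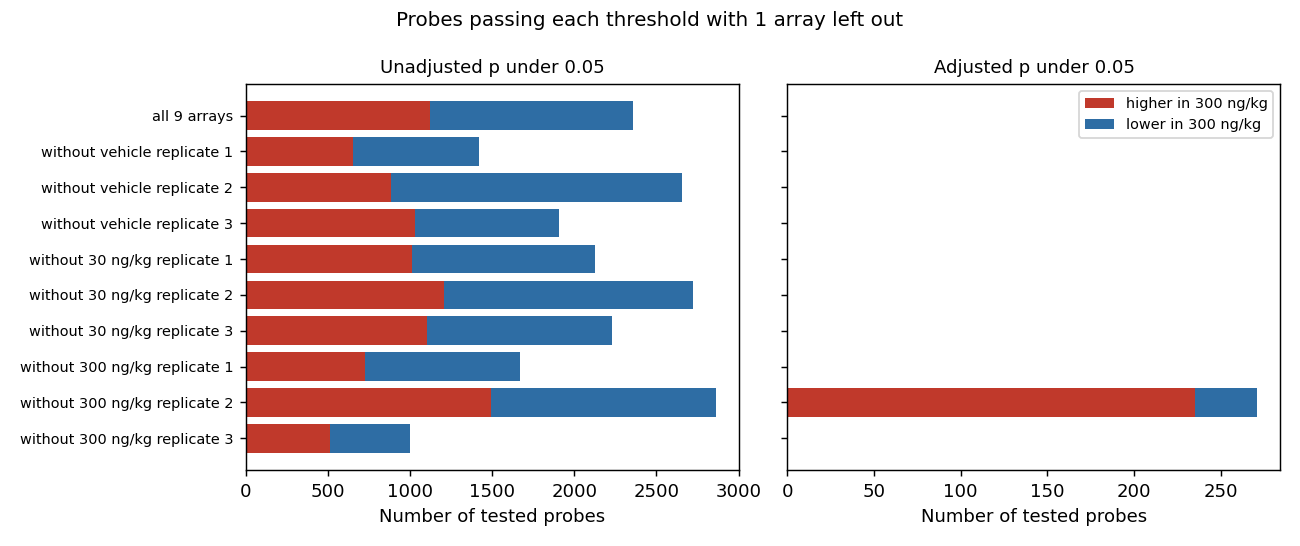
Bars give the number of tested probes with an unadjusted p (left) or adjusted p (right) under 0.05 in limma for 300 ng/kg against vehicle, with all 9 arrays or with 1 left out, split by direction. Adjusted calls appear in 1 of the 10 fits, the one without replicate 2 of 300 ng/kg, and unadjusted counts run from 997 to 2860.

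Between the doses, no probe differed at an adjusted p under 0.05 for 300 against 30 ng/kg (limma), and 3130 did at an unadjusted p under 0.05 (20.6%). For XBP1, DNAJA1, ID3 and VNN2 every 30 ng/kg value lay below every 300 ng/kg value, and at least 1 lay within the vehicle range. Others had 30 ng/kg values level with 300 ng/kg: LPL, the lipoprotein lipase, read 0.24, -0.15 and 0.46 in vehicle, 2.07, 1.39 and 1.65 at 30 ng/kg and 1.24, 1.89 and 1.13 at 300 ng/kg (1.24 ± 0.29), ALCAM, a cell adhesion molecule, read -3.26, -3.53 and -3.47, -1.80, -1.90 and -2.34 and -2.08, -2.53 and -1.27 (1.46 ± 0.33), and the orphan receptor NR4A2 read -3.60, -4.07 and -3.60, -3.13, -2.19 and -2.79 and -2.40, -2.79 and -2.83 (1.08 ± 0.29). The 300 minus 30 ng/kg differences of these 3 genes were -0.29, 0.06 and 0.03 (unadjusted p = 0.36, 0.87 and 0.91, limma), which does not show that the doses act alike.

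The authors' deposited table lists 1261 probes with a fold of at least 1.5 for 300 ng/kg against control, 544 up and 717 down. Of these, 1122 were tested here, and the sign of the difference was the same for all 1122, as both come from the same arrays. Their deposited fold for TGM4 was 469 and for XBP1 2.62, both up, and for PENK 8.04 and SGCA 3.33, both down.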

How the data were processed

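Cy3-labelled RNA of 9 prostates (0.5 ug each, per the labels' protocols) was hybridised to Agilent 1-colour arrays, 1 per animal. The labelled dose set each array's group, 3 per group. The offspring are separate animals per the labels, and shared dams are not named. P-values measure the spread between these animals, except where values were set to the floor. The genes described and the gene lists were chosen with earlier results of these data known.

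Per the file headers, Agilent Feature Extraction 9.5.1.1 read the images (version 9.5 per the submitters' processing notes). The deposited processed signal is a linear intensity, background-subtracted by that program and not normalized between arrays. The authors' deposited table of 1502 probes gives a fold as a ratio, and group means as log2 values. Per the file headers it required an analysis of variance p-value up to 0.05 and a fold from 1.5 up. Gene symbols come from its probe descriptions (1371 probes, 1335 symbols, of which 865 were found in the macaque reference table and 23 as a synonym there). The other 13937 tested probes are unnamed here. The table's 9 columns of flags and its normalized group means were not used.

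The mean signal of a probe's 2 spots was divided by the array's 75th percentile, set to no less than 5 units of the dimmest array, and log2-transformed. Control spots were left out, and so was a spot with an outlier mark unless both spots of its probe had one. Testing covered the 15160 probes that were well above background on each array of 1 or more groups, and left out 5057. All 9 arrays entered 1 limma fit (limma 3.58.1, R 4.3.3, statmod 1.5.0), with group as the only term. P-values are 2-sided and were Benjamini-Hochberg adjusted over all tested probes, with calls at 0.05. The number of arrays limits precision: the median residual SD was 0.400 log2 units, with 6 residual and 2.99 prior degrees of freedom. The fit was tested on simulated data.

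Named genes were the 15 higher and 15 lower symbols with the smallest p and the 12 and 12 with the largest difference (probes above background on all 6 compared arrays), all without overlap between groups, up to 3 members of each of 50 lists with an unadjusted p under 0.05, KLK3, MSMB and TGM4, and the 2 higher and 2 lower probes without a symbol with the smallest p. Other members are given to account for a list. One gene the rule names is not reported here. List genes were represented by their brightest probe, and 9 false matches by name were removed from lists after they were seen. Alternatives were normexp (offset 50), quantile or median scaling, other filters, a floor of 1 unit, a fit of 6 arrays, slide, replicate number or brightness in the model, array weights, and each array left out. Scaling on probes above background on all arrays was added after seeing the data. Figures were drawn with matplotlib 3.10.9.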

Additional observations from a re-analysis of the deposited data

How the results depend on the processing

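With all 9 arrays, no probe passed an adjusted p under 0.05 in limma, 2357 had an unadjusted p under 0.05, and 1195 had that with a fold of at least 2. The adjusted count was 0 under the other alternatives except array weights (198) and the fit without replicate 2 of 300 ng/kg, so it ran from 0 to 271 when 1 array was left out. The smallest adjusted p ran from 0.0022 to 0.60 over the alternatives. The unadjusted count was 1249 with normexp (418 higher, 831 lower), 4634 with array weights and 1116 with brightness as a covariate. It was 997 without replicate 3 of 300 ng/kg and 1418 without replicate 1 of vehicle, and ran from 997 to 2860 when 1 array was left out. With slide as a fixed block it was 2848, of which 544 were higher. Probes without overlap numbered 3434, and with normexp 1092 were higher and 2344 lower. With 1 array fewer to separate, their number ran from 4017 to 6114, with 5929, 5631 and 6114 without replicates 2 and 3 of vehicle and 2 of 300 ng/kg. The cause of these differences was not tested. With the replicate number as a block 2461 probes had an unadjusted p under 0.05 and none an adjusted one. The deviations of vehicle and 300 ng/kg arrays of the same number correlated at 0.10, -0.07 and -0.21 over probes. Arrays of unlike number gave -0.25 to 0.29. Deviations from a mean of 3 arrays constrain one another, so these values do not settle whether the numbers pair the animals.

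The differences of 143 named probes were recomputed under 22 alternatives. Of 3123 values, 3117 kept their direction, and 116 of these passed the adjusted test, 75 with array weights and 41 without replicate 2 of 300 ng/kg. The 6 that reversed were those of CTSS (-0.16), MRPL47 (-0.25), PCDH17 (-0.16), ERO1LB (-0.10) and OSBPL3 (-0.0022) with normexp, under which the median of all probes stood at -0.22, and of CDK6 (-0.0065) with slide as a fixed block. The cause was not tested. Dim probes limit what can be said: 34 named differences shrank by over 1.5 times with normexp, whose offset of 50 units weighs most on dim signals. Having 3 arrays per group, with slide tied to dose, is the other limit.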

Other observations

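Some genes with large differences fell outside the rule for named genes and were chosen after their values were seen, among probes that passed the adjusted test without replicate 2 of 300 ng/kg. KRT23, a keratin of simple epithelia, read -4.37, -4.76 and -6.08 in vehicle and 0.47, -3.88 and -0.31 at 300 ng/kg, a difference of 3.83 with all arrays. DMBT1, a secreted scavenger protein of mucosal surfaces, read -4.22, -6.10 and -4.92 against -0.69, -3.19 and 0.68 (4.02). MAL2, which carries cargo to the apical membrane of polarised cells, read -3.94, -4.98 and -5.19 against 0.03, -3.79 and -0.62 (3.24). In all 3 genes replicates 1 and 3 were high, and replicate 2 lay 1.19, 1.90 and 0.92 above the vehicle mean.

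HSD11B2, which inactivates cortisol, read -0.10, 0.42 and -1.30 in vehicle and 2.61, 0.30 and 3.03 at 300 ng/kg (2.31). CNR1, the cannabinoid receptor of nerves, was at the floor of -6.10 on all vehicle arrays and read -2.67, -5.54 and -3.63 at 300 ng/kg, at least 4.23-fold higher. GRHL3, a factor of epidermal barrier formation, differed by 2.47 and the chloride channel gene TMEM16A by 2.14. Among lower genes TACR2, the neurokinin receptor of visceral smooth muscle, read -2.11, -2.75 and -2.32 in vehicle and -3.84, -2.80 and -4.18 at 300 ng/kg (-1.21), and ALPL, tissue-nonspecific alkaline phosphatase, read 1.00, 1.44 and 1.53 against -0.14, 1.39 and -0.46 (-1.06). For S100A2 and ALPL replicate 2 stood level with vehicle, at 0.07 and 0.06 from the vehicle mean.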
